A study of Mus musculus with 4 samples.

Results

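The transcripts described are those of 33 genes of the mitotic machinery: subunits of the spindle, the kinetochore, the chromosomal passenger complex, the anaphase-promoting complex and the cytokinetic apparatus, with the cyclins and kinases that drive mitosis. They were chosen by name and function, with earlier results of these data known, and the rule that picks them uses no measured value. All 33 were among the 15002 genes in the tables, and each had UMIs in every tumour.

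The study profiled single cells of 4 mouse medulloblastomas by Drop-seq, which pairs a cell with a barcoded bead in a droplet and counts unique molecular identifiers (UMIs), 1 for each captured transcript molecule. All 4 tumours were taken at postnatal day 16 from untreated mice that carried hGFAP-Cre and SmoM2 together with Prkaa1fl/fl and Prkaa2fl/fl alleles. The Cre recombinase is driven by the human GFAP promoter, which is active in neural progenitors, and it switches on SmoM2, an activated form of the Sonic hedgehog (SHH) transducer Smoothened. The floxed genes Prkaa1 and Prkaa2 encode the catalytic subunits of AMP-activated protein kinase, and the same recombinase is meant to delete them. All 4 tumours have this genotype, so the data hold 1 labelled group, and no comparison with intact tumours was analysed here.

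As background, a cell that has copied its DNA enters mitosis when CDK1 binds its cyclins. Kinetochores then join chromosomes to spindle microtubules, the spindle checkpoint holds the anaphase-promoting complex in check until all chromosomes are attached, and the central spindle and a contractile ring divide the cell. Most genes of this machinery are transcribed in G2 and mitosis, from promoters many of which carry a cell cycle homology region (CHR) and CCAAT boxes. In SHH medulloblastoma the dividing cells resemble granule neuron progenitors of the cerebellum.

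Promoter sequences were matched for 28 of the 33 genes in RefSeq (GRCm38.p6), as 31 windows of 300 bases from 250 bases before to 50 bases after an annotated start. Aurkb, Ccna2, Cdca2, Incenp and Tpx2 were not matched in the set of promoter windows used, which does not show that RefSeq lacks them. Of the 31 windows, 4 are shown because the results turn on their genes. Top2a and Ube2c had fold changes of opposite sign in mitotic-only cells against cells high in both sums, though neither passed the test. Plk1 had the largest fold, and Cenpe was higher again when S-phase transcripts were low. Capitals mark the CHR letters TTTGAA and the CCAAT box, or their reverse complements TTCAAA and ATTGG, and each sequence is written 5′ to 3′ on the strand of its gene.

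Top2a promoter, chr11:99024140-99024439, minus strand: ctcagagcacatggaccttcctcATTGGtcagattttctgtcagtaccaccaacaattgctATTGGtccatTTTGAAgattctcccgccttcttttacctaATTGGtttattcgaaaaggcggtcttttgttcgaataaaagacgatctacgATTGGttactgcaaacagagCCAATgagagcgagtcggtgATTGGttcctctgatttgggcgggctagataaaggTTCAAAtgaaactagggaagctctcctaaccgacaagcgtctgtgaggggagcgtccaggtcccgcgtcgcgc

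Ube2c promoter, chr2:164769679-164769978, plus strand: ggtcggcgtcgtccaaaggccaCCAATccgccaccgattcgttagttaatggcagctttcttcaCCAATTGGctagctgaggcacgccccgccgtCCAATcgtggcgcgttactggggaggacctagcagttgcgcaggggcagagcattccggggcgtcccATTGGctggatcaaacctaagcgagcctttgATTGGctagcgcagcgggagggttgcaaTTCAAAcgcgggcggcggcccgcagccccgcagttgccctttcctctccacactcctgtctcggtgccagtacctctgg

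Plk1 promoter, chr7:122159185-122159484, plus strand: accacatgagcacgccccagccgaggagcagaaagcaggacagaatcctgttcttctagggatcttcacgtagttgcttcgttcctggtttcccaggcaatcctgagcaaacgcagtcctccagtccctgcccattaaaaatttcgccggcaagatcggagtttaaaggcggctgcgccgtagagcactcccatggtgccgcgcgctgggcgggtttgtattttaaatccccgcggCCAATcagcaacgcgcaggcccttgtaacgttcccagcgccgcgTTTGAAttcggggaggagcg

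Cenpe promoter, chr3:135212313-135212612, plus strand: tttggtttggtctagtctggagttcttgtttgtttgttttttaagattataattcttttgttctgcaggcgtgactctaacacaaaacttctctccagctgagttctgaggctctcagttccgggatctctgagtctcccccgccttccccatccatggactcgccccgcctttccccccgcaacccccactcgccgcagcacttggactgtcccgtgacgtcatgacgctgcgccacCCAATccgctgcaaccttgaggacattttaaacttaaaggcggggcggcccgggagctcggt

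The CHR letters occurred in 24 of the 31 windows (77.4%), against 17.9% of all 32851 mouse promoter windows. The CCAAT box occurred in 27 of the 31 (87.1%), against 37.4% of all windows. Both were present in 22 of the 31 (71.0%), against 6.95% of all windows. The E2F letters GCGGGAA, or TTCCCGC on the other strand, occurred in 1 of the 31 (3.23%) and in 4.60% of all windows. In the windows printed here, Top2a held 2 CHR matches and 6 CCAAT matches, Ube2c held 1 and 6, Plk1 held 1 and 1, and Cenpe held no CHR match and 1 CCAAT match. A match describes letters in a window and does not show that a factor binds there.

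Barcodes with at least 500 UMIs were kept, which left 766, 807, 566 and 1083 cells in tumours 1 to 4 with a median of 749 to 972 UMIs. Libraries 1 and 2 stood apart from libraries 3 and 4 over all genes. Log2 CPM, where CPM is the UMIs of a gene for every 1000000 UMIs of the same cells, correlated with r of 0.91 between libraries 1 and 2 and 0.90 between 3 and 4, against 0.60 to 0.79 across these pairs. The mitochondrial share of UMIs was 12.1% and 12.7% in tumours 1 and 2 and 2.68% and 2.13% in tumours 3 and 4. No barcode with at least 500 UMIs was shared between libraries. Transcripts of the granule lineage were present in every tumour, with Zic1 between 992 and 1096 CPM and Pax6 between 350 and 402. Atoh1, a progenitor marker of that lineage, stood at 52.2, 45.6, 125 and 124 CPM in tumours 1 to 4, Barhl1 at 294, 326, 573 and 538, and the SHH target Gli1 at 236, 116, 43.5 and 61.4, so these 3 differed between the pairs. The floxed genes were near the limit of detection, Prkaa1 with 16, 4, 3 and 5 UMIs and Prkaa2 with 10, 5, 10 and 14 in tumours 1 to 4; where the floxed exons lie relative to the counted 3′ ends is not given in the sources used here. Nothing in the labels says more of how the 4 samples were taken than that each is a separate sample. The p-values below compare classes of cells within samples and measure how far such differences vary between these samples.

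The summed level of the 33 genes was 10975, 10712, 7004 and 9272 CPM in tumours 1 to 4 and averaged 9491 ± 1819 (SD, n = 4). Tumour 3 was lowest and tumours 1 and 2 were highest. After every cell was thinned to 500 UMIs, 67.6%, 79.7%, 57.6% and 62.1% of cells held a UMI of at least 1 of the 33 genes, a mean of 66.8% ± 9.54 (SD, n = 4); without thinning the mean was 75.8% ± 9.27. Cells without high cell cycle markers held such UMIs too, with shares given below. Single genes were seen in far fewer cells. Mki67, a coat protein of mitotic chromosomes and the best known proliferation marker, was detected in 39.0%, 43.5%, 20.7% and 27.1% of thinned cells. Aurkb, the kinase of the chromosomal passenger complex, was detected in 1.17%, 1.73%, 1.41% and 3.32%.

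To place the genes within the cell cycle, cells were sorted with marker lists that hold none of the 33. A cell was called S-high when 52 S-phase genes, such as the Mcm helicase subunits and Pcna, together gave at least 2 UMIs and 0.4% of its UMIs. It was called mitotic-high by the same rule for 49 other mitotic genes, such as mitotic kinesins and Ndc80. This gave 940 S-high cells with a low mitotic sum, 820 cells high in both sums, 202 cells high in the mitotic sum only and 1260 cells high in neither. Mitotic-only cells numbered 52, 42, 38 and 70 in the tumours, or 6.79%, 5.20%, 6.71% and 6.46% of all cells (mean 6.29% ± 0.74, SD, n = 4). Cells high in both sums accounted for 24.9% ± 3.47 (SD, n = 4). These classes are ranges of a score and not cell types: 372 cells lay between 0.3% and 0.5% for the mitotic sum and 544 for the S-phase sum. Median depth was 836 UMIs in S-high cells, 997 in cells high in both, 859.5 in mitotic-only cells and 762 in the rest, and the part that depth plays in class membership was not tested.

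The 33 genes were concentrated in mitotic-high cells. A thinned cell held on average 6.56 ± 0.90 of them in the mitotic-only class, 6.31 ± 0.61 in cells high in both sums, 1.49 ± 0.43 in S-high cells and 0.77 ± 0.36 in cells high in neither (SD over 4 tumours). At least 3 of the genes were present in 76.2% of mitotic-only cells and 87.0% of cells high in both, against 21.6% of S-high cells and 6.75% of the rest. Among 136 cells with high postmitotic neuron markers and both sums low, with a median of 704 UMIs, the share was 2.94%. Among 42 cells with microglial or endothelial markers, with a median of 1265 UMIs, it was 9.52%. At least 1 of the genes was seen in 39.7% of the 136 cells, 42.9% of the 42 cells and 45.9% of all cells high in neither sum. Mki67 was seen in 6.62% of the 136 and 19.0% of the 42. The 136 cells were chosen for low sums and the 42 hold some S-high and mitotic-only cells, so none of these shares measures free RNA alone.

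**Figure D1:**
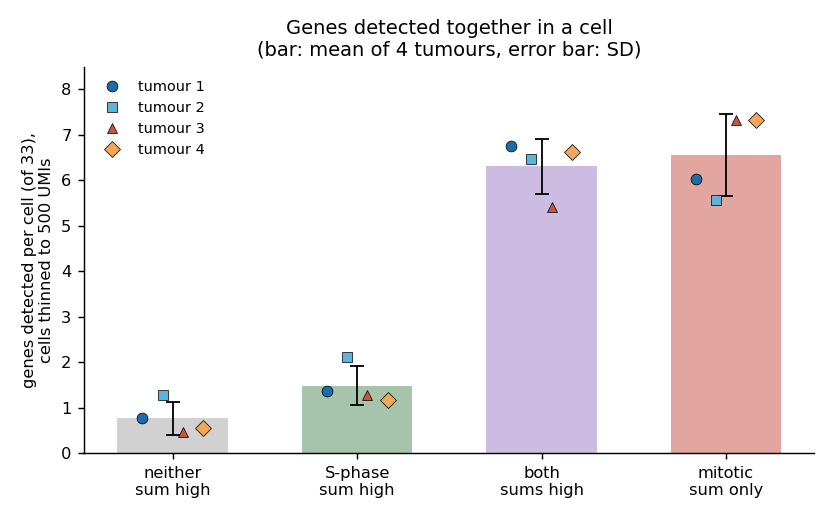
Number of the 33 mitotic genes detected per cell after thinning to 500 UMIs, by class; bars are means of 4 tumours, error bars are SD and symbols are tumours. Both mitotic-high classes lie between 5.42 and 7.33 genes per cell, above the S-high range of 1.17 to 2.12 and the neither range, in every tumour.

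Counts were then summed per tumour and class and compared with edgeR's quasi-likelihood test with the tumour as a block, with Benjamini-Hochberg adjustment over all genes. All 33 genes passed the filter on low counts. All 33 rose in mitotic-only cells over S-high cells at an adjusted p under 0.05, where 1.93% of the 5291 genes tested were higher and 0.605% lower. Their log2 fold changes ran from 1.28 (Racgap1) to 4.52 (Plk1) with a median of 2.64, while the median of all genes was -0.08. All 33 also rose in cells high in both sums over S-high cells, where 3.33% of genes were higher and 1.34% lower, with log2 fold changes of 1.28 to 3.55 and a median of 2.49. Against cells high in neither sum all 33 rose as well, where 4.88% of genes were higher and 4.44% lower, with log2 fold changes of 2.15 to 5.65 and a median of 3.85. Cells high in neither also held more RNA of other cells. Oligodendrocyte markers summed to 463 to 3787 CPM per tumour there and 213 to 1125 in mitotic-only cells, microglial ones to 460 to 1141 and 0 to 663. The median share of postmitotic neuron markers was 0.91% against 0.36%. The part of these cells in the folds was not tested. At a class threshold of 0.2%, 21 of 33 were called higher against S-high cells, where 0.648% of all genes were, and 22 against cells high in neither, where 0.839% were. The calls lost over S-high cells were those of Cdca2, Cdk1, Ccna2, Aurkb, Incenp, Birc5, Bub1, Bub1b, Ttk, Ect2, Racgap1 and Anln, and over cells high in neither the same ones except Ccna2. In tumours 1 and 2 alone 25 were called higher against S-high cells (0.962% of all genes), without Cdk1, Aurka, Aurkb, Birc5, Bub1, Ttk, Ect2 and Racgap1, and 30 against cells high in neither (2.02%). For cells high in both over S-high cells that pair called 32 (2.33% of all genes), losing Birc5 at 0.88 (edgeR adjusted p = 0.26), and without the tumour block Racgap1 lost its call (1.26, edgeR adjusted p = 0.16). Every fold of the 33 genes stayed positive in these settings. The classes rest on co-expressed genes of the same cells, so these tests describe how far the classes differ and do not show that the classes exist. When the mitotic class was built for each gene from the other 32, all 33 were higher in 4 of 4 tumours in each of these comparisons.

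**Figure D2:**
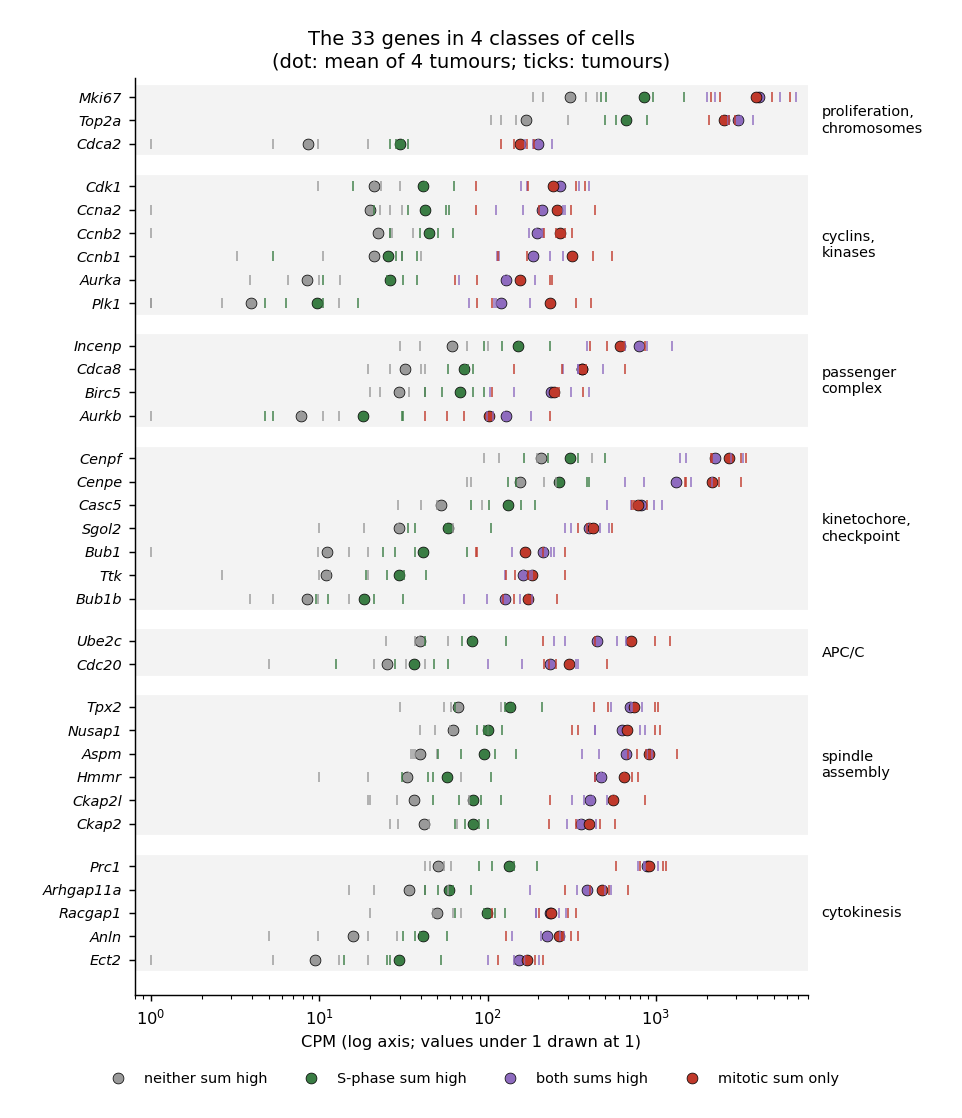
Level of each gene in 4 classes of cells, in CPM on a log axis; dots are means of 4 tumours, ticks are tumours, and shaded bands group the genes by role. The mitotic-only and both-high dots lie to the right of the S-high dot for all 33 genes.

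The 3 genes of proliferation and chromosome structure were among the least changed relative to S-high cells. Mki67 stood at 6273, 4869, 2133 and 2384 CPM in mitotic-only cells of tumours 1 to 4 and at 963, 1468, 505 and 468 in S-high cells. The classes did not overlap, tumours 1 and 2 were the highest in both, and the log2 fold change was 2.21 (SE 0.13; edgeR adjusted p = 2.6e-21). Top2a encodes the topoisomerase that untangles sister DNA. It reached 2934, 2708, 2061 and 2451 CPM in mitotic-only cells against 582, 885, 694 and 496 in S-high cells. All 4 mitotic-only values lay above every S-high value, with a log2 fold change of 1.97 (SE 0.16; edgeR adjusted p = 3.8e-16). Cdca2 targets protein phosphatase 1 to chromosomes as the cell leaves mitosis, and it rose by 2.38 on the log2 scale (SE 0.40; edgeR adjusted p = 7.9e-06). It stood at 170.1, 144, 119.8 and 189 CPM in mitotic-only cells, from 5 to 17 UMIs a tumour, and between 26.5 and 33.8 in S-high cells.

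Among the cyclins and mitotic kinases all 6 genes rose, with log2 fold changes from 2.59 to 4.52. Plk1, the polo-like kinase that acts from mitotic entry to cytokinesis, gave the largest fold of the 33. It stood at 106, 86.4, 336 and 412 CPM in mitotic-only cells and at 10.6, 4.78, 6.31 and 16.9 in S-high cells. Tumours 3 and 4 were higher than tumours 1 and 2 in the mitotic-only class, and the S-high values rest on 1 to 6 UMIs a tumour. The log2 fold change was 4.52 (SE 0.46; edgeR adjusted p = 5.4e-12). Cdk1, the kinase that starts mitosis, stood at 85.1, 173, 336 and 379 CPM in mitotic-only cells and between 15.9 and 63.1 in S-high cells. It rose by 2.63 on the log2 scale (SE 0.33; edgeR adjusted p = 5.3e-09), without overlap between the classes. The call of Cdk1 was lost at a class threshold of 0.2% (1.01, edgeR adjusted p = 0.71) and in tumours 1 and 2 alone (2.05, edgeR adjusted p = 0.12). Ccnb2, a B-type cyclin that activates CDK1, rose by 2.59 (SE 0.35; edgeR adjusted p = 3.1e-08) and stood at 319, 288, 216 and 256 CPM in mitotic-only cells. The other B-type cyclin, Ccnb1, rose by 3.59, and the cyclin Ccna2 and the spindle pole kinase Aurka rose by 2.64 and 2.59. The mouse genome holds the pseudogenes Ccnb1-ps and Ccnb2-ps, and how reads shared with them were counted is not given in the sources used here.

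The chromosomal passenger complex joins the kinase Aurkb to its scaffold Incenp and to Birc5 (survivin) and Cdca8 (borealin). All 4 rose, and the complex held some of the lower folds. Incenp stood at 510.3, 864, 407 and 646 CPM in mitotic-only cells against 153, 234, 94.6 and 121 in S-high cells, without overlap. Its log2 fold change was 2.07 (SE 0.23; edgeR adjusted p = 8.7e-11), and at a class threshold of 0.2% it was 0.99 (edgeR adjusted p = 0.46). Birc5 was at 106, 259, 264 and 368 CPM in mitotic-only cells and between 42.3 and 95.7 in S-high cells. It rose by 1.93 on the log2 scale (SE 0.35; edgeR adjusted p = 4.0e-05), and by 1.40 without tumour 4, where the edgeR adjusted p was 0.074. Aurkb rose by 2.61 (SE 0.49; edgeR adjusted p = 7.6e-05), from 42.5, 57.6, 71.9 and 234 CPM in mitotic-only cells and between 4.78 and 31.5 in S-high cells. Its highest value was that of tumour 4, with 21 UMIs against 2 or 3 in the others. Without that tumour its log2 fold change was 2.04 and the edgeR adjusted p was 0.34. Cdca8 rose by 2.46.

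The 7 kinetochore, cohesion and checkpoint genes rose by 2.19 to 3.28 on the log2 scale. Cenpf, a large protein of the outer kinetochore, led them. It stood at 3189.5, 2161, 3427 and 2117 CPM in mitotic-only cells and at 344, 497, 227 and 164 in S-high cells. The classes were far apart in every tumour, with a log2 fold change of 3.28 (SE 0.20; edgeR adjusted p = 2.6e-21). Bub1, a checkpoint kinase at the kinetochore, had the lowest fold of the group at 2.19 (SE 0.42; edgeR adjusted p = 0.00012). It was at 85.1, 86.4, 288 and 212 CPM in mitotic-only cells against 37.0, 23.9, 75.7 and 28.2 in S-high cells, so tumours 1 and 2 were only just above the highest S-high value. Cenpe, the kinesin that carries chromosomes to the spindle equator, rose by 3.09, and Bub1b, which encodes the checkpoint protein BubR1, by 3.21. Casc5 (now Knl1), the kinetochore scaffold for checkpoint proteins, rose by 2.62, the checkpoint kinase Ttk by 2.52 and the cohesin protector Sgol2 (now Sgo2a) by 2.96.

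Both genes of the anaphase-promoting complex pathway rose. Ube2c, the ubiquitin-conjugating enzyme of the complex, stood at 213, 432, 983 and 1214 CPM in mitotic-only cells and at 42.3, 129, 82.0 and 70.5 in S-high cells. The log2 fold change was 3.17 (SE 0.29; edgeR adjusted p = 7.8e-14). Cdc20, the activator that the checkpoint holds back, stood at 510.3, 230.5, 216 and 256 CPM in mitotic-only cells against 58.2, 47.8, 12.6 and 28.2. It rose by 3.09 (SE 0.32; edgeR adjusted p = 1.3e-11). Neither gene overlapped between the classes. Tumour 1 was lowest for Ube2c and highest for Cdc20. Ube2c overlaps Tnnc2 and Cdc20 overlaps Elovl1 on the opposite strands, and whether strand was used in counting is not given in the sources used here. The same limit applies to Prc1, Sgol2, Nusap1, Ccna2, Ckap2l and Cdca8, which also overlap genes on the opposite strand.

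The 6 spindle assembly genes rose by 2.42 to 3.64. Tpx2 activates Aurka on spindle microtubules. It stood at 425, 519, 1031 and 992 CPM in mitotic-only cells and at 63.5, 210.5, 126 and 141 in S-high cells, and rose by 2.51 (SE 0.25; edgeR adjusted p = 1.5e-12). Hmmr, which binds hyaluronan and spindle microtubules, rose most in the group. It stood at 723, 432, 647 and 779.9 CPM in mitotic-only cells and between 31.0 and 105 in S-high cells, a log2 fold change of 3.64 (SE 0.28; edgeR adjusted p = 1.9e-16). Ckap2, a microtubule-stabilising protein, rose least at 2.42 (SE 0.28; edgeR adjusted p = 2.8e-10), from 468, 230.5, 336 and 568 CPM in mitotic-only cells and between 63.5 and 100.4 in S-high cells. No value of these 3 genes in S-high cells reached the lowest mitotic-only value. Aspm, which acts at spindle poles, rose by 3.32, the spindle-associated Nusap1 by 2.75 and the Ckap2 relative Ckap2l by 2.79.

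The 5 cytokinesis genes included the smallest change of the 33. Prc1 bundles the microtubules of the central spindle. It stood at 808, 576, 1102 and 1148 CPM in mitotic-only cells and at 106, 196, 88.3 and 144 in S-high cells, a log2 fold change of 2.77 (SE 0.20; edgeR adjusted p = 2.4e-17). Arhgap11a, a GTPase-activating protein for RhoA, rose by 3.15 (SE 0.28; edgeR adjusted p = 3.6e-14). It stood at 680.4, 288, 407 and 524 CPM in mitotic-only cells and between 42.3 and 79.4 in S-high cells. Racgap1 is a subunit of centralspindlin, which organises the central spindle. It stood at 106, 202, 336 and 301 CPM in mitotic-only cells and at 63.5, 95.7, 126 and 110.0 in S-high cells, so the classes overlapped. Within every tumour the mitotic-only value was the higher, and the log2 fold change was 1.28 (SE 0.31; edgeR adjusted p = 0.0042). Without tumour 4 the edgeR adjusted p was 0.21, and without the tumour block it was 0.21 as well. Ect2, the exchange factor that activates RhoA at the equator, rose by 2.72, and the ring scaffold Anln by 2.68.

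The next comparison asked which genes rose further when S-phase transcripts were low, in mitotic-only cells against cells high in both sums. Only Cenpe passed, and none was lower at the threshold or at an unadjusted p under 0.05, where 0.284% of all genes tested were higher and 0.359% lower by edgeR. Of the 33 genes 24 had a positive and 9 a negative log2 fold change, 7 had an unadjusted edgeR p under 0.05, all of them positive (3.27% of all genes were higher and 5.08% lower at that limit), and the median was 0.23 against -0.02 for all genes. Cenpe lies on chromosome 3 from 135212537 to 135273611 (GENCODE M21, GRCm38). It stood at 3211, 2362, 1486 and 1504 CPM in mitotic-only cells of tumours 1 to 4 and at 2158, 1617, 652 and 849 in cells high in both. It was the higher in each of the 4 tumours, although the ranges of the classes overlap, and its log2 fold change was 0.75 (SE 0.14; edgeR adjusted p = 0.00040). DESeq2 also called Cenpe and no other gene of the 33, where it called 0.17% of all genes higher. At a class threshold of 0.2% the log2 fold change of Cenpe turned to -0.56 (edgeR adjusted p = 0.27). It stayed positive but missed the threshold without the tumour block (0.69, edgeR adjusted p = 1.0), with a limit of 10% on the mitochondrial share (0.55, adjusted p = 0.16), without a filter on low counts (0.47, adjusted p = 0.061) and in tumours 1 and 2 alone (0.53, adjusted p = 0.23).

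The other positive values did not pass. Plk1 had a log2 fold change of 0.96 (SE 0.31; edgeR adjusted p = 0.15) and was higher in mitotic-only cells of tumours 3 and 4 alone, at 336 and 412 CPM against 77.6 and 179. Ccnb1 was at 0.69 (SE 0.27; edgeR adjusted p = 0.31) and higher in 4 of 4 tumours. Ube2c was at 0.68 (SE 0.23; edgeR adjusted p = 0.18), Hmmr at 0.52, Aspm at 0.47 and Cenpf at 0.37. At the other end stood Bub1 at -0.36 (SE 0.32), Incenp at -0.32 (SE 0.19), Cdca2 at -0.30 (SE 0.30) and Top2a at -0.28 (SE 0.14; edgeR adjusted p = 0.55). Top2a was at 3756, 3202, 2694 and 2684 CPM in cells high in both and at 2934, 2708, 2061 and 2451 in mitotic-only cells, lower in each of the 4 tumours. The normal 95% interval of its log2 fold change ran from -0.56 to -0.0035, at an unadjusted edgeR p of 0.052. Top2a was called lower by edgeR when cells were thinned to 500 UMIs (-0.56, adjusted p = 0.038) and without a filter on low counts (-0.56, adjusted p = 0.0013). Without that filter the median of all genes also moved by -0.28, to -0.31, so the second call holds a shift shared by all genes.

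**Figure D3:**
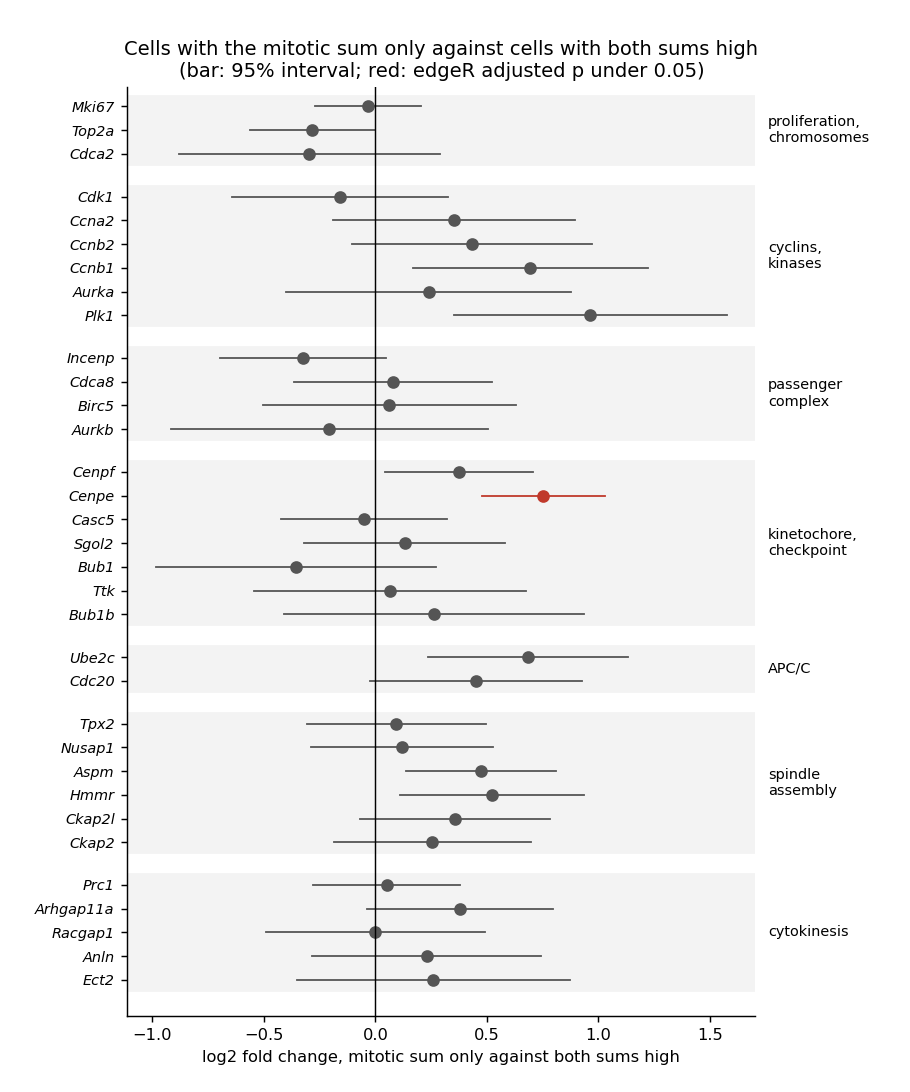
Log2 fold change of each gene in mitotic-only cells against cells high in both sums, with normal 95% intervals from the edgeR standard errors. Red marks an edgeR adjusted p under 0.05. Cenpe at 0.75 is the only red point, Plk1 lies farthest right at 0.96, and Bub1, Incenp, Cdca2 and Top2a lie left of 0.

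The direction in this last comparison depended on the class threshold, which applies to the S-phase and the mitotic sum alike, and on the libraries, and the number of calls depended on the S-phase list. When Nasp was left out of that list, 9 genes were called higher by edgeR, where 0.471% of all genes were: Ccnb1, Plk1, Cenpe, Cenpf, Ube2c, Cdc20, Tpx2, Aspm and Arhgap11a. The share of mitotic-only cells was then 9.47%. With cells of at least 1000 UMIs 2 genes were called higher, where 0.204% of all genes were. With a class threshold of 0.2% of UMIs, all 33 folds were negative and 10 genes were called lower by edgeR, where 1.53% of all genes were. With 0.8%, 32 folds were positive and 9 genes were called higher, where 0.539% of all genes were. Among them were Cenpe, Cenpf, Plk1, Ube2c and Aspm, higher at 0.8%, and Mki67, Top2a, Cdk1 and Incenp, lower at 0.2%. In tumours 3 and 4 alone, 28 of 33 log2 fold changes were positive and Cenpe, Cenpf, Plk1 and Ube2c were called higher, where 0.493% of all genes were. In tumours 1 and 2 alone, 9 were positive, none was called by edgeR, where 0.308% of all genes were higher and 0.173% lower, and 6 had an unadjusted p under 0.05, as did 7.64% of all genes. The 2 classes also differed in the mitotic sum that defines them. Its median share of UMIs was 0.78%, 0.59%, 0.99% and 1.07% in mitotic-only cells of tumours 1 to 4. In cells high in both sums it was 0.88%, 0.80%, 0.74% and 0.87%. Mitotic-only cells were thus the lower in tumours 1 and 2 and the higher in tumours 3 and 4. The part of this in the folds was not tested. The difference between the pairs of tumours was tested as an interaction in edgeR, and none of the 33 passed in this comparison, where 0.0372% of all genes passed; 6 had an unadjusted p under 0.05, as did 5.67% of all genes. In mitotic-only cells against cells high in neither sum, where 0.167% of all genes passed, the interaction was called for Cenpf, Nusap1 and Ube2c, each with the larger fold in tumours 3 and 4. The pairs were seen in the data and are not groups of the study, so these calls describe a split chosen after seeing it.

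Other genes of mitosis were examined in the same way, with the mitotic class built from the 33 genes so that the list that had defined it could be tested. Of the 49 listed genes 37 passed the filter on low counts and 12 did not, and a gene could pass through the class in which it was high. In mitotic-only over S-high cells 35 of the 37 were called higher by edgeR, where 1.96% of all genes were higher and 0.788% lower. The kinesin Kif14 rose by 4.37, the microtubule-associated Psrc1 by 4.22 and the centromeric histone Cenpa by 4.12. Hjurp, the chaperone of that histone, at 0.23 (SE 0.20; edgeR adjusted p = 0.75), and Ska3, at 1.46 (edgeR adjusted p = 0.19), were the genes that missed the threshold. In cells high in both over S-high cells the 37 were all called higher, where 3.33% of all genes were higher and 1.52% lower. In mitotic-only cells over cells high in both, none of the 37 was called by edgeR, where 0.909% of all genes were higher and 0.727% lower; 2 were higher and 5 lower at an unadjusted p under 0.05, as were 5.25% and 5.82% of all genes.

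Outside all of these lists, the 5 largest rises in mitotic-only over S-high cells included Pif1, a DNA helicase, at a log2 fold change of 4.49, and Gas2l3, a cytoskeletal linker, at 3.32. Bora, a cofactor by which Aurka activates Plk1, rose by 2.79, C330027C09Rik (the RefSeq synonym of Cip2a) by 2.75, and Cep89, a centriolar protein, by 2.37. Lyz2, a macrophage lysozyme, ranked first among the falls by edgeR, with 43 UMIs in S-high cells and none in mitotic-only cells, and no fold is given against a class at 0. Next came Chrna3 at -2.37, with 3 UMIs in mitotic-only and 69 in S-high cells, the transcription factor E2f3 at -2.31, Zhx1 at -2.17 and Slfn9 at -2.0 (edgeR adjusted p under 0.05 for each). In the mitotic-only class, at least 4 UMIs of microglial markers occurred in 1 of its 202 cells, of endothelial markers in none, of oligodendrocyte markers in 2, of astrocyte markers in none and of fibroblast markers in 1. The S-high class held 4 such microglial cells of 940. The 11 microglial markers, all present in the tables, summed to between 0 and 663 CPM in mitotic-only cells of the 4 tumours and between 50.5 and 513 in S-high cells. Their part in the fall of Lyz2 was not tested. Oligodendrocyte markers summed to 213, 403, 264 and 1125 CPM in mitotic-only cells of tumours 1 to 4 and to between 208 and 536 in S-high cells, with tumour 4 the highest. Fibroblast markers stood at 319 CPM in mitotic-only cells of tumour 1 and at 0 in the other tumours, against 0 to 76.5 in S-high cells. The part of these cells in the folds was not tested.

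Single mitotic cells were also compared for which genes they held together. In the 1022 mitotic-high cells, thinned to 500 UMIs, 518 of the 528 gene pairs had at least 5 expected cells, with expectations taken within each tumour. The observed count exceeded the expected one in 473 of these pairs, with a median ratio of 1.25 and a range of 0.55 to 2.22. In 208 pairs it did so in all 4 tumours. Ccna2 and Ect2 gave the highest ratio, with 16 cells against 7.20 expected. Ccnb1 and Plk1 shared 19 cells against 9.49 expected, and Ccnb1 and Ccnb2 shared 20 against 10.2. At the low end Aurkb and Bub1 shared 3 cells against 5.49 expected. Over all 3222 cells, where dividing and non-dividing cells are mixed, the median ratio over 443 pairs was 2.40 and every pair was above 1. These ratios describe cells of 4 libraries and were given no test. Richness of a cell in mitotic RNA and its depth before thinning are shared by both genes of a pair.

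Levels per tumour divided the genes in opposite ways between the pairs of libraries. Of the 33 genes 11 were higher in both of tumours 1 and 2 than in both of tumours 3 and 4, 12 were lower and 10 overlapped. Over the 5849 genes with at least 100 UMIs, 33.3% were higher and 44.7% lower in this way, so the counts lie near the background of the libraries. Mki67 stood at 2742, 2474, 877 and 1138 CPM in tumours 1 to 4, which is 2.46 times higher in tumours 1 and 2. Cenpe stood at 1007, 815, 344 and 464, or 2.13 times higher. Cdc20 at 159, 142, 47.3 and 87.7, Aspm at 369, 395, 183 and 231 and Cenpf at 1313, 1255, 711 and 749.8 had the same order. In the opposite direction, Ccnb1 stood at 47.0, 59.4, 127 and 139 CPM, 2.55 times higher in tumours 3 and 4. Cdk1 at 58.7, 81.5, 142 and 183 and Ube2c at 123, 155, 253 and 346 were 2.45 and 2.30 times higher there. Hmmr at 207, 221, 174 and 236 and Ckap2 at 184, 169, 142 and 191 overlapped.

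**Figure D4:**
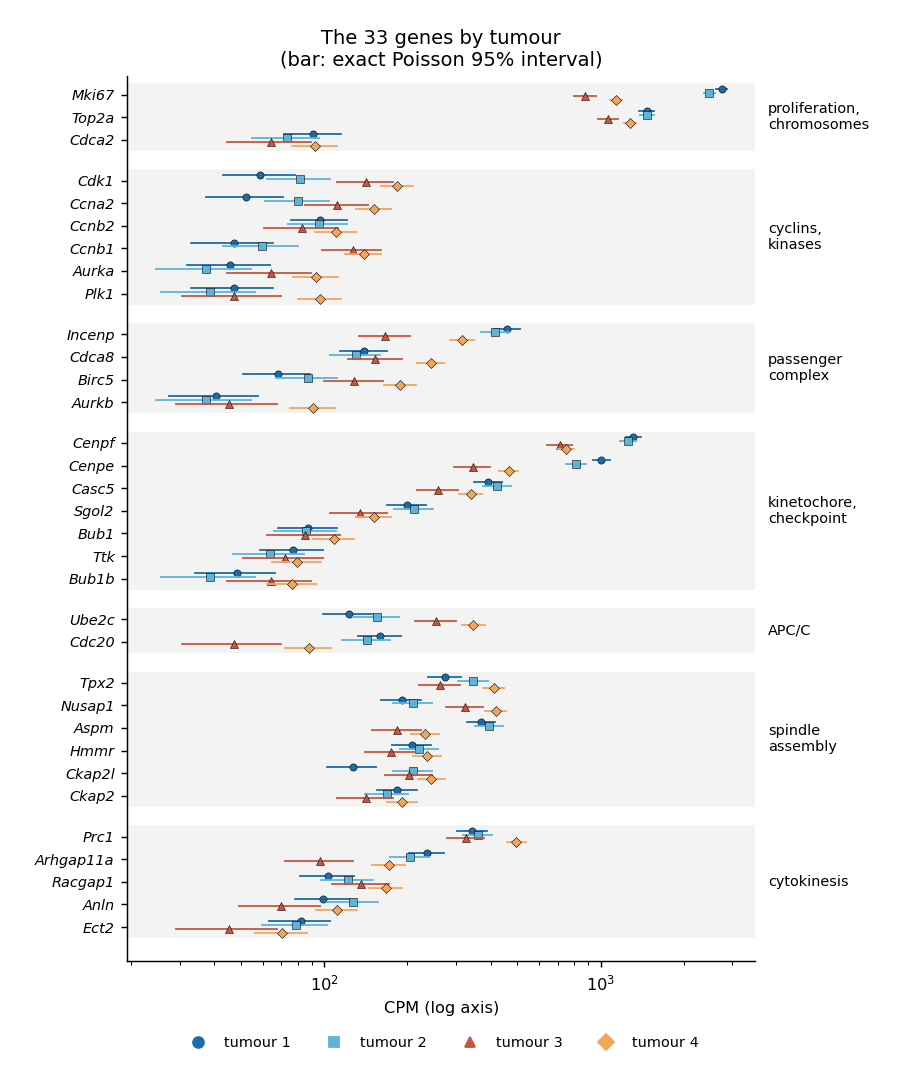
Level of each gene in the 4 tumours in CPM on a log axis, with exact Poisson 95% intervals that cover counting error only. Blue symbols (tumours 1 and 2) lie right of the red and orange ones (tumours 3 and 4) for genes such as Mki67 and Cenpe and left of them for genes such as Ccnb1, Cdk1 and Ube2c.

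By role, the sum for proliferation and chromosome structure was 1.76 times higher in tumours 1 and 2. Mki67, 2.46 times higher there, holds most of that sum, while Top2a was 1.21 times higher and Cdca2 overlapped between the pairs. The kinetochore and checkpoint sum was 1.60 times higher in tumours 1 and 2. Cenpf and Cenpe hold most of this sum, while Bub1b, Bub1 and Ttk of that group were 1.67, 1.17 and 1.10 times higher in tumours 3 and 4 pooled. The cyclin and kinase sum was 1.94 times and the anaphase-promoting complex sum 1.36 times higher in tumours 3 and 4, the latter with Ube2c 2.30 times higher there and Cdc20 1.99 times higher in tumours 1 and 2. The passenger complex, spindle assembly and cytokinesis sums differed less, by 1.07, 1.10 and 1.04 times, but their genes went both ways. Incenp was 1.61 times higher in tumours 1 and 2, while Birc5, Aurkb and Cdca8 were 2.21, 1.99 and 1.60 times higher in tumours 3 and 4. Aspm was 1.76 times higher in tumours 1 and 2 and Nusap1 1.95 times higher in tumours 3 and 4. Of the cytokinesis genes, Arhgap11a was 1.48 times higher in tumours 1 and 2 and Racgap1 1.41 times higher in tumours 3 and 4. The summed levels of the S-phase list and of the other mitotic list were nearly equal between the pairs, with ratios of 1.0 and 0.98. The share of mitotic-only cells overlapped between the pairs. Transcript length moved with the division. The longest annotated transcript had a median of 5221 bases among the 11 genes higher in tumours 1 and 2 and 3149.5 bases among the 12 that were lower. Spearman's correlation across genes between length and the log2 ratio was 0.57 for the 33 and 0.60 for all genes with at least 100 UMIs; genes are not independent replicates, and no test was made. The part of transcript length in the division was not tested, and the mitochondrial share cannot be told apart from the library pair.

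**Figure D5:**
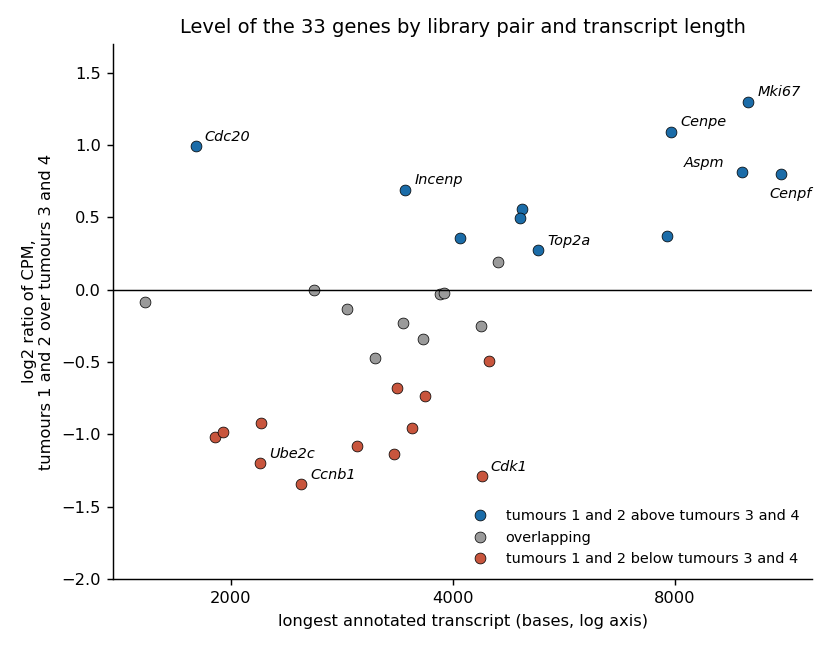
Log2 ratio of the level in tumours 1 and 2 over tumours 3 and 4 against the length of the longest annotated transcript on a log axis, for the 33 genes. Long transcripts such as Mki67, Cenpe, Aspm and Cenpf lie above 0 and Ccnb1 and Ube2c lie below; Cdc20 is short and lies above.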

How the data were processed

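Per the labels, cells were dissociated with papain and 3′-biased Drop-seq libraries were made. The submitters' processing notes name the aligner STAR and the build mm10; counting software, annotation and use of strand are not given in the sources used here. The deposited values are whole-number UMI counts per gene and barcode, 1 table per tumour. Columns of 11203 cells in 6 other tables could be tied to no sample by name and were not used here.

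Barcodes with at least 500 UMIs were kept, with no limit on the mitochondrial share. Scrublet (scanpy 1.11.5, expected share 6%) marked 1, 1, 3 and 2 doublets, fewer than it can be trusted to find, and they were kept. UMIs were summed per tumour and class (16 sums) and tested with edgeR 4.0.16 in R 4.3.3 (TMM, filterByExpr, quasi-likelihood test, tumour as a block, Benjamini-Hochberg adjustment over all genes, threshold 0.05). Sums of a tumour come from the same sample, and their deviations from class means correlated with r of 0.33 to 0.75 over 5378 genes. Standard errors are the log2 fold change over the square root of F. Percentages of all genes leave out the class markers, except those of the interaction (5378 genes) and of the levels per tumour (5849 genes). CPM is UMIs of a gene over all UMIs of the same cells, times 1000000. Its intervals are exact at 95% and cover counting error only, while 95% intervals of log2 fold changes are normal ones from the standard errors. On simulated counts for mitotic-only against S-high cells (5408 genes), the step recovered 52% of 2-fold rises, 100% of 4-fold rises, 20% of 2-fold falls and 66% of 4-fold falls, and 7.03% of calls were false. Changes were placed only in genes above a minimum number of UMIs, so these rates do not cover genes with lower counts. The same dispersion was set for every gene.

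The genes, lists and tests were chosen with earlier results of these data known. Genes given with all values are, per role, the one with most UMIs and those with the largest and smallest fold in mitotic-only over S-high cells; Cenpe, Ccnb1 and Aspm were added after their values were seen. Genes outside the lists are the 5 largest folds per direction with adjusted p under 0.05, at least 50 CPM and 1 sign in all tumours. Granule lineage genes were chosen after seeing the data. Alternatives covered scaling, DESeq2 1.42.0, filters, thinning, doublets, class thresholds, the tumour block and each tumour left out.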

Additional observations from a re-analysis of the deposited data

Results flagged for a closer look

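The highest of the 4 tumours stood far from the other 3 in the level of 3 genes, of 39 levels and sums examined; chance alone sets about 1 in 20 such groups apart. All 3 were highest in tumour 4: Plk1 at 96.5 CPM against 38.7 to 47.3, Aurkb at 90.9 against 37.3 to 45.4 and Bub1 at 108 against 85.1 to 87.4. The log2 fold change of mitotic-only cells over cells high in neither sum differed between tumours 1 and 2 and tumours 3 and 4 for 3 genes by the interaction test in edgeR. It was smaller in tumours 1 and 2, with a difference of -2.49 (SE 0.57; edgeR adjusted p = 0.026) for Ube2c, -2.35 (SE 0.48; edgeR adjusted p = 0.013) for Nusap1 and -1.49 (SE 0.33; edgeR adjusted p = 0.026) for Cenpf. In tumours 1 and 2 alone these genes rose by 2.57, 2.07 and 3.07, and in tumours 3 and 4 alone by 5.10, 4.45 and 4.58. Of all genes, 0.167% passed this interaction test. In mitotic-only over S-high cells the interaction was called for none of the 33 genes and for 1 of all 5378 genes tested. The counts were the same for cells high in both sums over S-high cells. The 2 pairs of libraries were seen in the data and are not groups of the study, and the mitochondrial share, which differs between them, cannot be told apart from the pairs.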

How the results depend on the processing

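Each of the 33 genes had a positive fold in mitotic-only over S-high cells under every alternative run that could test it. The number called there was 21 at a class threshold of 0.2% and 30 to 33 with 1 tumour left out; without tumour 4 Aurkb, Birc5 and Racgap1 lost the call. Without the replicate block 31 of 33 were called, losing Bub1 and Racgap1. Thinning to 500 UMIs lost Aurkb (1.81, edgeR adjusted p = 0.44) and Racgap1 (1.19, 0.068), and tumours 1 and 2 alone gave 25. Against cells high in neither, 11 genes lost the call at 0.2%, Aurkb, Bub1 and Racgap1 in tumours 1 and 2 alone, and Aurkb without tumour 4 (2.63, edgeR adjusted p = 0.068) and after thinning. In mitotic-only cells over cells high in both sums, 1 gene was called higher. The number higher was 0 without a filter on low counts (where Top2a was called lower), without the replicate block, with a mitochondrial share of at most 10%, at a class threshold of 0.2% (where 10 were called lower) and in tumours 1 and 2 alone. It was 2 with at least 1000 UMIs, 9 at a class threshold of 0.8%, 9 with the S-phase list without Nasp, 4 in tumours 3 and 4 alone, and 1 to 2 with 1 tumour left out. At 0.2% all 33 log2 fold changes were negative; among those that turned, Hmmr, Nusap1, Prc1 and Arhgap11a, at -1.13, -1.11, -1.23 and -1.20, were called lower, and Cenpe stood at -0.56. With classes built from the other 32 genes, 1 gene in place of 3 was higher in 4 of 4 tumours. The median of all genes moved by -0.28 without the filter and by -0.17 at 0.2% in this comparison, and by no more than 0.1 under the other settings run.

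The share of mitotic-only cells was 5.48% with the mitochondrial limit, 7.50% with at least 1000 UMIs, 4.52% at 0.2%, 9.62% at 0.8%, 9.47% without Nasp and 6.13% to 6.66% with 1 tumour left out. The summed level was 11714 CPM with at least 1000 UMIs and 8996 to 10319.6 with 1 tumour left out. The share of cells with any of the genes was 81.6% after thinning to 1000 UMIs and 62.5% to 69.8% with 1 tumour left out. The causes were not tested. The alternatives without Nasp, with pairs of tumours and with classes from the 33 genes were chosen after seeing the data. The mitotic-only class rests on 38 to 70 cells a tumour, and on simulated data 20% of 2-fold falls were recovered.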
